A study of Mus musculus with 2 samples.

Results

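The AP-1 subunits described here are 8 genes, namely Fos, Fosb, Fosl1 and Fosl2 of the Fos family, Jun, Junb and Jund of the Jun family, and Atf3. They were taken by symbol, matched through their Entrez gene IDs, from the 24532 gene IDs of a deposited table of read counts per transcript, and the rows of a gene were summed. All 8 were found and all 8 had at least 10 counts in the higher library, which is how a measured gene is defined here. The RNA was from freshly sorted muscle stem cells, which sit under the sheath of muscle fibres and carry Pax7, of male C57BL/6 mice, in 1 wild-type (WT) and 1 double-knockout (dKO) library. In dKO mice Esr2, which encodes estrogen receptor beta, is lost (Esr2-/-), and Pax7-CreER, a Cre that acts in Pax7-expressing cells once tamoxifen is given, deletes a further gene that is not reported here. The labels give the WT group no Cre and no allele. Per the labels' protocols, tamoxifen (20 mg/mL) was given by mouth on 5 days from 3 months of age. The titles also read 6M, which the sources used here do not explain, and they do not say how many animals a library pools. Muscle was held with enzymes for 60 minutes at 37 degrees to free the cells, which were sorted for Vcam1 and against Sca1, CD45 and CD31.

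AP-1 is a family of dimeric transcription factors whose subunits pair through a leucine zipper and touch DNA through the basic region beside it. Jun proteins can pair with one another or with a Fos protein, whereas Fos proteins need a Jun partner. Fos and Fosb carry strong activation domains that Fosl1 (Fra-1) and Fosl2 (Fra-2) lack, and Atf3 often represses. Most of these genes are immediate early genes, transcribed within minutes of a growth factor, stress or cytokine signal, and in muscle stem cells the release of the cells from tissue is itself known to induce them.

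With 1 library per group there was no spread between replicates and no test, so each statement compares these 2 libraries. The counts summed to 36636680 in WT and 43699831 in dKO. CPM values, the counts put on an equal library size, were scaled by the trimmed mean of M values (TMM), the log2 ratio is that of dKO CPM + 1 over WT CPM + 1, and folds are ratios of CPM with exact 95% intervals that cover counting error only. Of 14885 measured genes, 1.92% were higher in dKO by 2-fold and 4.3% were lower (6.22% in either direction), and their median log2 ratio was −0.02. It was −0.24 when libraries were scaled by their totals alone, so the ratios of the 8 subunits and the list medians are given for both. Single genes of the lists are given with TMM scaling unless stated. Small ratios above 0 among them may turn sign by totals. Pax7 was 1.77-fold lower in dKO (22335 counts in WT and 12620 in dKO), and Myf5 was 1.17-fold lower (9711 and 8337). Myod1, a myogenic factor, was 3.13-fold higher in dKO (5396 and 16886 counts), and Vcam1, the antigen sorted for, 1.78-fold higher (23795 and 42383). Esr2 had 71 and 45 counts. The sources used here do not give the deleted part of Esr2, so these counts do not check the labels. Markers of cells that the sort was set to remove were lower in dKO. All 11 endothelial markers were below 0, 9 of them by 2-fold, with a summed level of 639 CPM in WT and 286 in dKO, and all 13 immune markers were below 0, 12 by 2-fold, with 204 and 59.1 CPM. Of 9 fibro-adipogenic markers 8 were below 0 (4704 and 3880 CPM summed), and of 6 tendon markers 5 were below 0 (4366 and 2078 CPM). Muscle stem cell markers summed to 7895 CPM in WT and 10192 in dKO, with 1 of 10 (Myod1) higher by 2-fold and 5 above 0, and of the 8 mural, 6 glial and 8 myofibre markers 3, 0 and 0 were lower by 2-fold and 0, 0 and 1 higher. No marker of these lists had a count of 0 in either library. Their part in the AP-1 values was not tested. In such bulk samples, fewer cells of a type and less RNA per cell cannot be told apart.

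Fosl1 was the 1 subunit of 8 that stood 2-fold apart between the libraries, beside 6.22% of all measured genes, and Fosl1 was higher in dKO. It encodes Fra-1, a Fos family protein without a strong activation domain of its own. The WT library had 2927 counts of Fosl1 (95% Poisson interval 2822 to 3035) and the dKO library 14476 (14241 to 14714), or 73.2 and 362 CPM. The dKO level was 4.94-fold that of WT (4.75 to 5.15), a log2 ratio of 2.29. The other 7 subunits had log2 ratios between −0.47 and 0.36, inside the range of −1.21 to 0.92 that held the middle 95% of measured genes. Fosl1 ranked 17th from the top among all 14885 measured ratios, and among the 574 genes with at least as many counts in the higher library its ratio was the highest, ahead of Asb5 (log2 ratio 2.16). That depth limit was set at Fosl1's own count after its value was seen. The Fosl1 ratio was 2.04 by library totals and 1.90 after removal of a trend of the ratio on abundance, transcript length and GC content.

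Fosl1 lies on chromosome 19 (5447698 to 5455938 on GRCm38, RefSeq) and is protein-coding, with 4 exons in GENCODE M21. On the other strand it shares 1163 of its 2033 annotated exonic bases with Ccdc85b. The sources used here do not say whether counting used strand, so within the shared bases the reads of these 2 genes cannot be told apart. Ccdc85b itself was listed with 1919 counts in WT and 2901 in dKO, a 1.51-fold difference (1.43 to 1.60), a smaller ratio than that of Fosl1. By the rule set for the member with the largest ratio, the 5 characterised genes nearest to Fosl1 in the plane of the 2 log2 levels were Kirrel (105 and 355 CPM), Uck2 (101 and 298), Ccl11 (69.0 and 247), Hmox1 (109 and 332) and Tcim (116 and 425). Over 2 libraries this is closeness of level only.

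**Figure D1:**
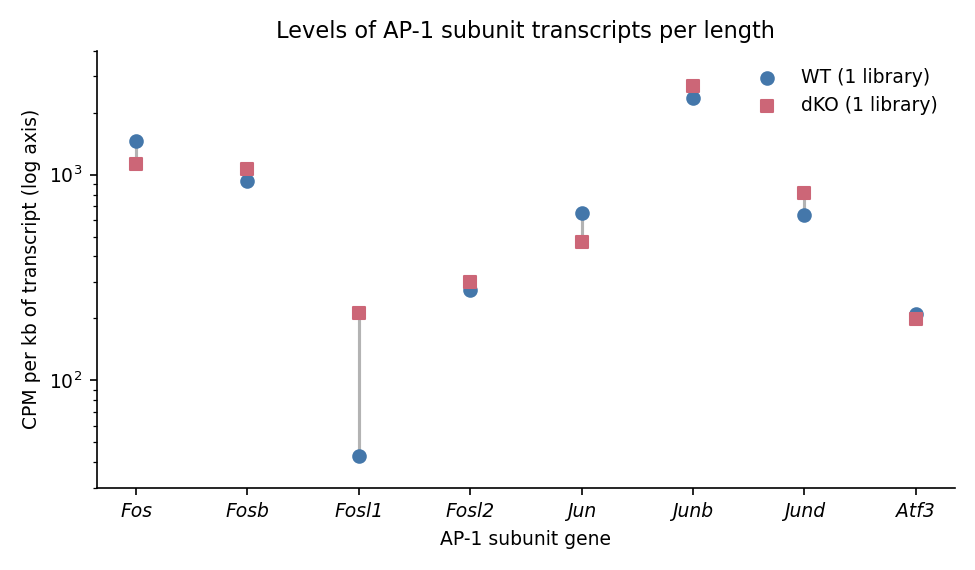
Level of each AP-1 subunit in CPM per kb of transcript on a log axis, with 1 point per library (circle WT, square dKO) and a grey line joining them. Fosl1 moves from 42.9 to 212, while each of the other 7 genes lies within 2-fold, and Junb is highest in both libraries.

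Of the other Fos family genes, Fos was lower in dKO and Fosb and Fosl2 were close to level. Fos, the founding immediate early gene of the family (chromosome 12, 85473890 to 85477274), had 121483 counts in WT and 94768 in dKO, or 3037 and 2368 CPM. It was 1.28-fold lower in dKO (1.27 to 1.29), a log2 ratio of −0.36, which was −0.61 by library totals and −0.70 with the trend removed. Fosb (chromosome 7, 19302696 to 19310118) had 136749 and 158648 counts, a log2 ratio of 0.21 that turned to −0.04 by library totals. Fosl2, the gene of Fra-2 (chromosome 5, 32136472 to 32157840), had 64588 and 70636 counts, a log2 ratio of 0.13 that turned to −0.13 by totals and to −0.07 with the trend removed. No direction is given for Fosb or Fosl2.

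Among the Jun family genes, Jun was lower in dKO. Junb and Jund were higher by the main computation, Jund by 1.28-fold, but each changed sign under at least 1 alternative. Jun, which encodes c-Jun, the main target of the JNK kinases (chromosome 4, 95049036 to 95052222), had 83133 counts in WT and 60145 in dKO, or 2078 and 1503 CPM. It was 1.38-fold lower in dKO (1.37 to 1.40), the lowest log2 ratio of the 8 at −0.47, and −0.72 by totals and −0.78 with the trend removed. Junb (chromosome 8, 84976909 to 84978748) had 174108 and 199508 counts, the most of the 8 in both libraries, and a log2 ratio of 0.20 that turned to −0.06 by totals and −0.04 with the trend removed. Junb shares 173 exonic bases with Prdx2 on the other strand, which had 3625 and 4768 counts. Also on the other strand, Jund shares 877 of its 1668 GENCODE M21 exonic bases with Gm11175. Jun shares 232 of 3189 with Junos. No counts of Gm11175 or Junos were found, and reads within such shared bases cannot be told apart. Jund, the most constitutively expressed Jun gene (chromosome 8, 70697739 to 70700616), had 73507 and 94086 counts, a log2 ratio of 0.36 that was 0.10 by totals and turned to −0.09 with the trend removed.

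Atf3, a stress-induced gene whose protein pairs with Jun proteins (chromosome 1, 191170296 to 191183333), had 16614 counts in WT and 15660 in dKO. Its log2 ratio was −0.09, −0.34 by totals and −0.53 with the trend removed. Fos, Jun and Atf3 were below 0 and Fosl1 was above 0 under each of the 11 alternatives tried. Fosb, Fosl2, Junb and Jund changed sign under at least 1. For a gene with 1 row, such as Fos, Jun, Atf3 and Fosl1, most alternatives could not turn the sign. These are the choice of row, the count minimum, the fold rule and the pseudocount. Library totals and trend removal lowered the ratios of all 8, so they could not turn a ratio below 0. No direction is given for Atf3. Of the 8, 5 were above 0 by the main computation, where 47.6% of measured genes were, and 3 were below 0, where 52.4% were, and the median of the 8 was 0.16, or −0.09 by totals and −0.08 with the trend removed.

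**Figure D2:**
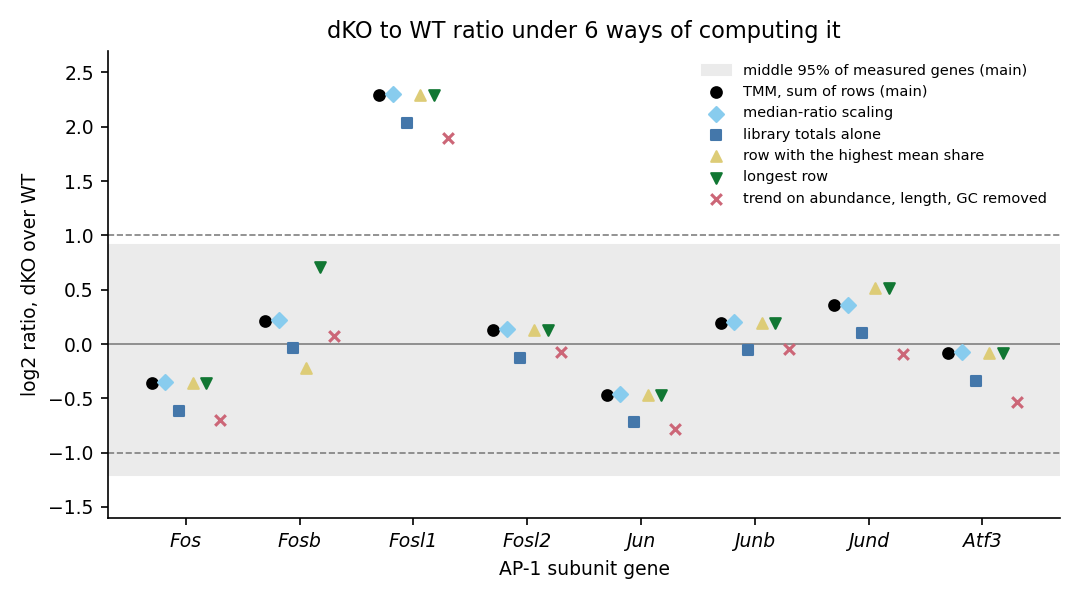
The log2 ratio of dKO over WT for each subunit (y axis), with 1 symbol for each of 6 ways of computing it, a grey band for the middle 95% of measured genes and dashed lines at 2-fold. All 6 Fosl1 symbols lie between 1.90 and 2.30, above the 2-fold line, and no symbol of another subunit lies past it in either direction.

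The promoters of Fos, Jun and Atf3, the 3 subunits below 0 by the main computation, are shown here to describe the letters next to their start. Atf3 was close to level (log2 ratio −0.09), and none of the motifs marked below was in all 3. The RefSeq table held a promoter for 7 of the 8 subunits, from 250 bases before to 50 bases after the start on GRCm38.p6, and none for Fosl1. Each line gives 130 bases, 120 before the start and the first 10 of the transcript, 5′ to 3′ on the gene's own strand. Capitals mark motifs searched on both strands. TGACG is the core of a cAMP response element. TGANNTCA is a palindrome of the AP-1 and ATF type, and TATAAA is a TATA box. The MEF2 type palindrome begins with CTA, goes on with any 4 bases, and ends with TAG.
Fos, chr12:85473770-85473899, plus strand: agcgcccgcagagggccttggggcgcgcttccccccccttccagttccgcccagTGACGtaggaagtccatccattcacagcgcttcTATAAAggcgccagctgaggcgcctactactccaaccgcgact
Jun, chr4:95052213-95052342, minus strand: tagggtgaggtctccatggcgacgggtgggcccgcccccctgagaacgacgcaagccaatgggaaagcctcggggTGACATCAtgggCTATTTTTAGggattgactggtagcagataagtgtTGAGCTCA
Atf3, chr1:191183324-191183453, minus strand: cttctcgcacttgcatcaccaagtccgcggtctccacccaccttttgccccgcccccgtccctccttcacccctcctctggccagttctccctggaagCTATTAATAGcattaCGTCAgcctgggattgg

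Fos held TGACG 66 bases before the start and TATAAA 33 bases before it. Jun held TGACATCA 45 bases and CTATTTTTAG 33 bases before the start, and Atf3 held CTATTAATAG 22 bases and TGACG, read on the other strand, 7 bases before it. Of the 7 promoters, 4 held TGACG (Fos, Fosb, Junb and Atf3), against 20.8% of the 32851 promoters in the table. TGANNTCA was in 2 (Jun and Jund; 14.1% of all), TATAAA in 2 (Fos and Junb; 13.6%) and the MEF2 type palindrome in 2 (Jun and Atf3; 3.69%). The 3 motifs listed first, the CArG box bound by SRF (1.63% of all promoters), TGANTCA (7.81%) and TGACGTCA (1.79%), were in 0 of the 7. TGACG and TGANNTCA overlap with TGACGTCA, and these 4 marked motifs were chosen after the sequences were seen. A match is a description of letters, and a missing one says only that the letters are not in this window.

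Levels between genes were compared per length, as CPM per kb of each row summed over the rows of a gene. Junb was highest in both libraries, at 2365 CPM per kb in WT and 2709 in dKO, where it was the 6th and the 9th most abundant of all measured genes. In WT it was followed by Fos (1450), Fosb (927), Jun (652), Jund (638), Fosl2 (275), Atf3 (210) and Fosl1 (42.9). In dKO the order was Junb, Fos (1131), Fosb (1068), Jund (817), Jun (472), Fosl2 (301), Fosl1 (212) and Atf3 (198). Jun and Jund thus stood side by side in WT, and Jund was 1.73 times Jun in dKO. The place of Jund depends on its length, since the deposited rows and RefSeq give it 2878 bases and GENCODE M21 gives 1668. Fosl1 was the lowest of the 8 in WT and was next to Atf3 in dKO. By rank among all measured genes, Fosl1 stood at place 1431 in WT and 345 in dKO, and Fos at 24 and 87.

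The make-up of the Fos family differed between the libraries. The summed level of the 4 Fos family genes was 2695 CPM per kb in WT and 2712 in dKO with TMM scaling, and by library totals, an alternative chosen after seeing the data, the dKO sum was 0.844 of that of WT. Fos made up 53.8% of it in WT (95% counting interval 53.6 to 54.0) and 41.7% in dKO (41.5 to 41.9), and Fosl1 made up 1.59% (1.54 to 1.65) and 7.82% (7.70 to 7.94). Fosb made up 34.4% in WT and 39.4% in dKO, but 24.6% and 23.2% by its most abundant row, which turns the direction. Fosl2 made up 10.2% and 11.1%. In the Jun family, whose total was 3656 CPM per kb in WT and 3998 in dKO (0.917 of WT by library totals), Jun made up 17.8% in WT and 11.8% in dKO, Junb 64.7% and 67.8%, and Jund 17.5% and 20.4%. The Fos to Jun family ratio was 0.737 in WT and 0.678 in dKO.

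Ratios between 2 subunits of the same library do not depend on how the libraries are scaled. Fosl1 stood at 0.0296 of the per-length level of Fos in WT and 0.188 in dKO, and by counts this ratio was 6.34 times higher in dKO (6.09 to 6.60). The same comparison gave 4.52 times for Fosl1 against Fosl2, the gene of the other Fra protein, and 6.84 times for Fosl1 against Jun. Fos against Jun was 1.08 times higher in dKO (1.06 to 1.09), so these 2 lower genes kept nearly the same proportion. Jun against Jund was 0.565 times that of WT (0.557 to 0.573), and Jun against Junb 0.631 times (0.624 to 0.639).

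**Figure D3:**
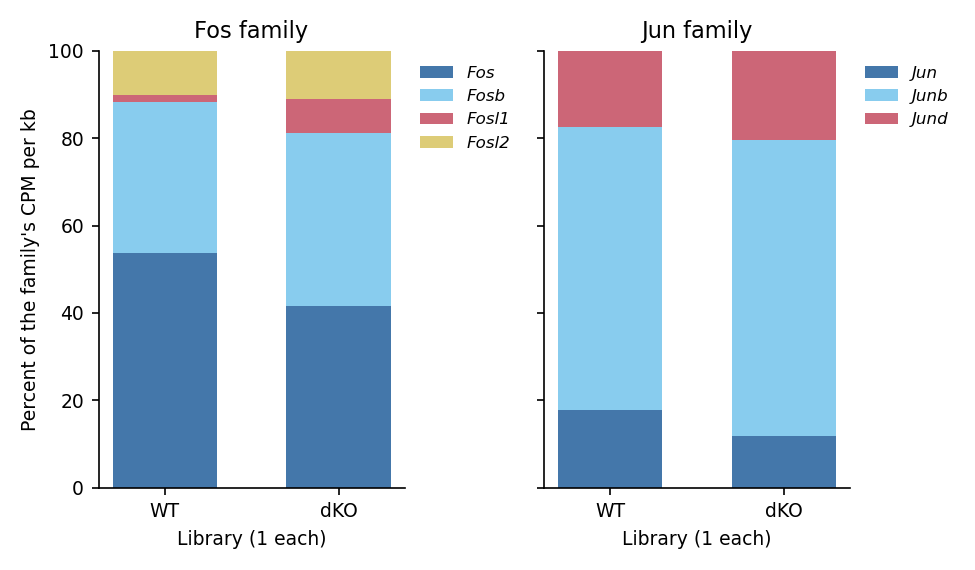
Stacked bars of each gene's percent of its family's summed CPM per kb (y axis, from 0 to 100), for the Fos family (left) and the Jun family (right), with 1 library per bar. The Fosl1 part grows from 1.59% in WT to 7.82% in dKO, and the Fos and Jun parts are smaller in dKO.

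Fosb and Jund each had 2 transcript rows, and the division of reads between them differed between the libraries. The longer Fosb row (3776 bases) held 52850 reads in WT and 86437 in dKO, against 83899 and 72211 for the shorter (3636 bases). The longer row thus held 38.6% of the Fosb reads in WT (Clopper-Pearson interval 38.4 to 38.9) and 54.5% in dKO (54.2 to 54.7), with a log2 ratio of 0.71, against −0.22 for the shorter one. The rows differ by 140 bases, the length of a stretch that GENCODE M21 lists both as part of the last Fosb exon and as an intron. It lies at chr7:19305007-19305146 on GRCm38, inside the coding sequence, and 140 is not a multiple of 3. The stretch is printed on the gene's strand because it is what tells such transcripts apart, with capitals for its first and last 2 bases, the GT and AG of an intron.
Fosb: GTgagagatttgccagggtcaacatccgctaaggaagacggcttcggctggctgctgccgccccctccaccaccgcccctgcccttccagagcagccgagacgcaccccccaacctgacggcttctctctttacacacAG

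Removal of a stretch of this exon is known to give the truncated protein DeltaFosB. The deposited rows carry no transcript name, so neither row is matched to that form here, and reads over the stretch itself were not analysed here. How reads were divided can be seen in Jund, whose 2 rows both have 2878 bases, the whole RefSeq gene. They had 41840 and 31667 counts in WT and 59874 and 34212 in dKO, so that the first row held 56.9% of the reads in WT and 63.6% in dKO. Reads were therefore divided between rows and not counted in each, and the sum of rows was used. Among 24 genes with 2 rows of the same length and at least 200 counts in each library, the share of the first row moved by a median of 1.22 percentage points between the libraries, and in 4 of them by at least the 6.72 points of Jund. It moved by more among 1921 genes with 2 rows of different lengths, with a median of 5.60. The Fosb share moved by 15.8 points, which 24.4% of those 1921 genes reached or passed. Cebpb, a gene with 3 rows of 1518 bases, named after its values were seen, had nearly all of its WT reads in 1 row (11847 of 11849) and 36.6% of its dKO reads there. The Fosb rows are therefore given as values and not as amounts of 2 transcript forms.

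**Figure D4:**
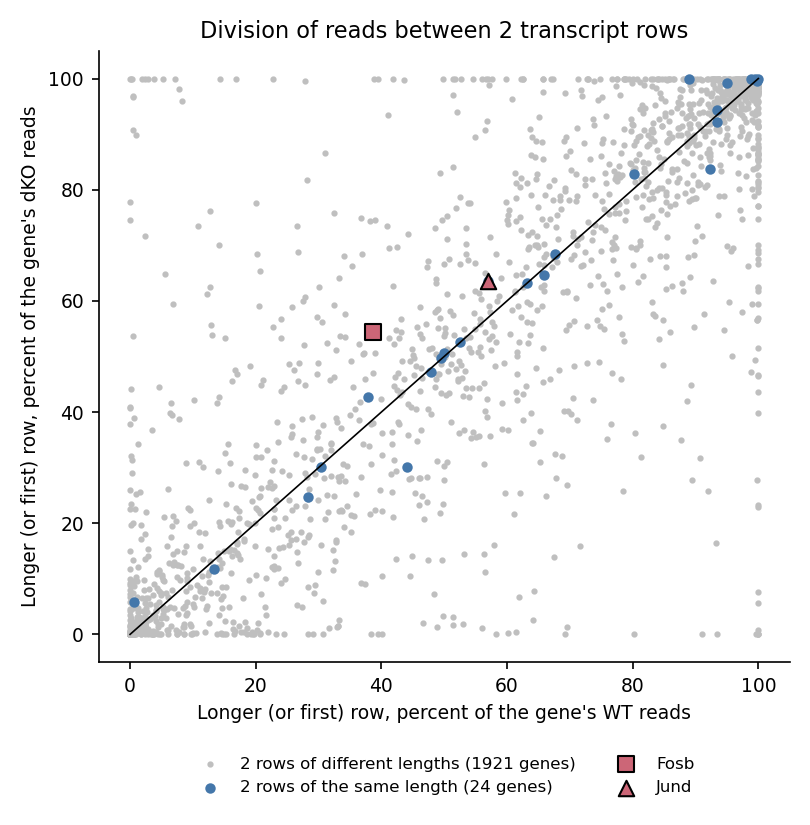
Percent of a gene's reads in its longer (or, at equal length, first) row, in WT (x axis) and dKO (y axis), for genes with 2 rows and at least 200 counts in each library. Grey points are the 1921 genes with rows of different lengths and blue points the 24 with rows of the same length. The diagonal marks an equal division in both libraries, and Fosb (38.6% and 54.5%) lies farther from it than Jund (56.9% and 63.6%).

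In structure, the 3 Jun family genes have 1 exon each, as do 4.81% of 20945 protein-coding genes by their longest coding transcript, and the Fos family genes and Atf3 have 4. The stretch after the stop codon was searched for ATTTA, the core of the AU-rich elements through which early response mRNAs are known to be degraded. Fosl2 had 8 copies in 4653 bases, Fos and Jun 4 each, Atf3 3, Junb 2, and Fosb, Fosl1 and Jund 1 each. At least 3 copies were present in 4 of the 8 subunits and in 35.3% of all these genes. Fos and Junb had the densest copies, at 4.91 and 4.12 per kb, against a median of 1.22 over all genes.

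Among genes that act before AP-1 in the pathway, the share 2-fold apart was close to the 6.22% of all measured genes by the main computation. Of 21 measured MAP kinase pathway genes, 1 was higher by 2-fold and 0 were lower, and the list median was 0.07 (−0.18 by totals). The higher one was Map2k3, which encodes a kinase that activates p38, with 7986 counts in WT and 27478 in dKO (3.44-fold, 3.35 to 3.53). Mapkapk2, a kinase that p38 activates, lay just under the line (7113 and 14217 counts, log2 ratio 0.99). By role rather than by the naming rule, Mapk8 and Mapk9, the genes of JNK kinases, had log2 ratios of 0.17 and −0.34. Of 12 regulators of Fos and Jun transcription, 1 was higher and 0 were lower, with a median of 0.17 (−0.08 by totals). Crem, a cAMP-responsive factor gene, was 2.75-fold higher (2005 and 5513 counts). Stat3, the factor that carries LIF and interleukin 6 signals to Fos and Junb, was at 0.98 on the log2 scale (36067 and 71424 counts), and Mef2d, a MEF2 factor gene, 0.49, or −0.29 by its most abundant row. Srf, whose protein binds the serum response element of Fos, is given for its role, and its log2 ratio was 0.44 (7877 and 10737 counts). The shares of these lists depended on the computation. By library totals, 1 of the 21 MAP kinase genes was higher and 3 lower, beside 130 and 1040 of 14885 genes. By the longest row, 4 of 11 regulators were higher and 1 lower, beside 638 and 947 of 14480 genes.

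Other leucine zipper genes whose proteins can pair with AP-1 subunits or share their sites were all measured. Of these 14, 1 was higher by 2-fold and 0 were lower, beside 1.92% and 4.3% of all measured genes. The higher one was Cebpb (11849 and 24110 counts, log2 ratio 1.02). Its most abundant row alone put Cebpb at −0.42, and Cebpb was not 2-fold apart by library totals or with the trend removed. The small Maf genes Maff and Mafk had log2 ratios of 0.88 and 0.50 and Mafg 0.28, and the stress response genes Atf4 and Ddit3 had 0.70 and 0.13. Atf2 and Atf7, whose proteins pair with Jun, had −0.09 and −0.14, and the most abundant row of Atf7 turned its sign to 0.84. Jdp2, a repressor partner of Jun, had 0.22. Maf, also expressed by macrophages, had −0.52, and the part of such cells in this value was not tested. Batf, Batf2 and Batf3 had at most 57 counts in either library, with log2 ratios of −0.21, 0.49 and 0.08. The median of the list was 0.18, and −0.0032 by totals.

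Of 14 genes for turnover of AP-1 proteins and mRNAs, 0 were higher by 2-fold and 1 was lower, beside 1.92% and 4.3% of all measured genes. The median of the list was 0.26. The lower one was Det1, part of a ubiquitin ligase that acts on Jun, with only 155 and 54 counts (log2 ratio −1.05), and it was not 2-fold apart with a pseudocount of 5 or with the trend removed. Zfp36 and Zfp36l1, whose proteins bind AU-rich elements and speed decay, were the most abundant members and had log2 ratios of −0.20 and 0.26. By totals the median of the list was 0.0049.

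Known AP-1 target genes included members 2-fold apart in both directions. Of 25 measured, 5 were higher and 2 lower, beside 1.92% and 4.3% of all measured genes, and the median was 0.13 (−0.08 by totals). Lif, the cytokine gene of that name, had 875 counts in WT and 7193 in dKO (8.22-fold, 7.66 to 8.83, and 4.29-fold by its most abundant row), and Hmox1, heme oxygenase, 4348 and 13281 (3.05-fold, 2.95 to 3.16). The other 3 higher ones, outside the naming rule and chosen after their values were seen, were Plaur, the urokinase receptor (2.67-fold), Ptgs2, the inducible prostaglandin synthase (2.68-fold), and Cd44, a hyaluronan receptor (2.15-fold). Cd44 lay nearest the 2-fold line of these 5, and by library totals or with the trend removed 4 targets were higher. Spp1, osteopontin, was 4.02-fold lower (768 and 191 counts) and Fn1, fibronectin, 3.20-fold lower (14692 and 4600). Their log2 ratios were −1.81 and −1.67 by the sum of rows, and −1.63 and −1.19 by the most abundant row. Spp1 and Fn1 are also made by immune and fibroblast-like cells, whose markers were lower in dKO, and the part of those cells in the values was not tested. Named for their role, the metalloprotease genes Mmp3, Mmp9, Mmp13 and Mmp14, classic AP-1 targets, had log2 ratios of −0.66, −0.36, 0.13 and 0.13. Several of these genes also answer to other factors.

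Among 23 immediate early genes outside the family, 2 were higher by 2-fold and 0 lower, beside 1.92% and 4.3% of all measured genes, and their median was 0.03, or −0.22 by totals and −0.35 with the trend removed. Ier5 was 2.17-fold (6133 and 13284 counts) and Myc 2.05-fold higher (15513 and 31764), and neither was 2-fold apart by library totals or with the trend removed. Egr1, the most abundant member of the list per length, given for its level after the values were seen, had a log2 ratio of 0.19 (237044 and 270831 counts). All 23 lay below the Fosl1 ratio of 2.29, the highest being 1.11.

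**Figure D5:**
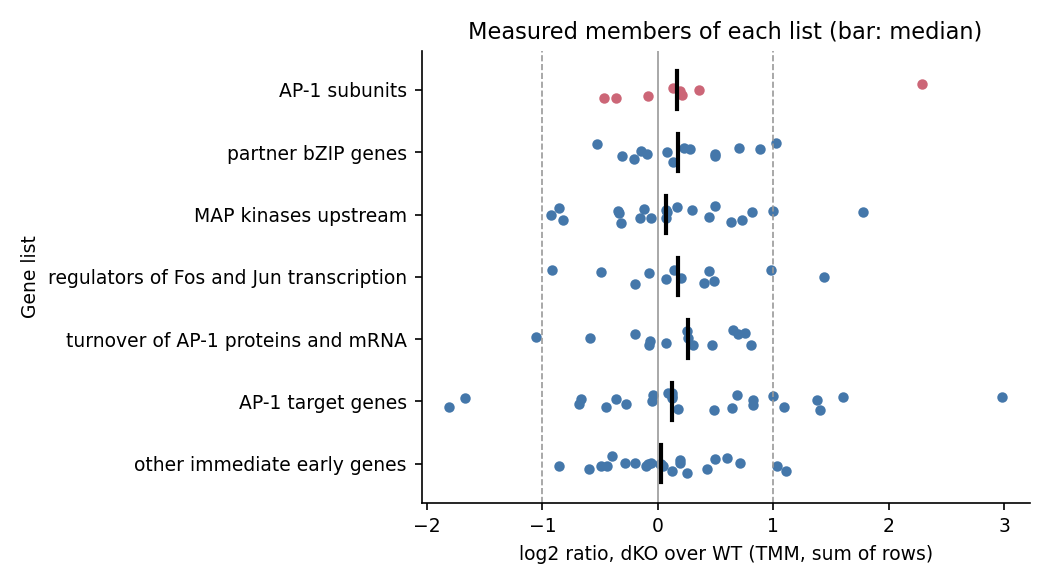
The log2 ratio of dKO over WT (x axis) for every measured member of the AP-1 subunits and of 6 gene lists, 1 point per gene, with a black bar at each median and dashed lines at 2-fold. Fosl1 at 2.29 stands alone among the AP-1 subunits, and among the AP-1 targets Lif lies at 2.98 and Spp1 at −1.81.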

How the data were processed

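RNA-seq read counts of 1 WT and 1 dKO library were used, grouped by the genotype label. The deposited values are whole-number counts for single transcripts, listed with gene ID and transcript length, per the file headers. The submitters' processing notes name mm10, edgeR, bedtools and TopHat2 2.0.9 without saying what each did. For the counting rule, annotation and strand setting, the sources used here give nothing. Rows of a gene were summed (36780 rows, 24532 gene IDs, 24462 with a RefSeq symbol). Sizes were scaled by TMM (edgeR 4.0.16, R 4.3.3; factors 1.09 for WT and 0.916 for dKO), with a pseudocount of 1 CPM on the log2 scale and a minimum of 10 counts. Folds carry conditional binomial (Clopper-Pearson) and counts Poisson 95% intervals. Amplified reads are not independent molecules, so intervals cover counting error only. No test between groups was possible. The steps were tested on simulated gene counts with Poisson counting error alone. That test cannot speak to spread between animals or to the division of reads between rows. Alternatives were median-ratio scaling (DESeq2 1.42.0), library totals, the most abundant or longest row, pseudocounts of 0.1 and 5, no minimum or 100 counts, 1.5-fold and 4-fold rules, and removal of a cubic trend on abundance, length and GC content (known for 95.3% of measured genes and all 8 subunits). The subunits and lists were chosen with earlier results of these data known. Named were all subunits and the partner genes (1 is not reported here), and per other list up to 4 members 2-fold apart with the largest ratio, or, with fewer than 2, also its 2 most abundant per length.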

Additional observations from a re-analysis of the deposited data

How the results depend on the processing

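No paired analysis was possible because each group has 1 library. For the same reason no replicate could be left out, and no difference has a replicate check. Among the 8 AP-1 subunits, 1 was higher and 0 were lower under each of the 11 alternatives, 1.5-fold and 4-fold rules included. Fosl1 has 1 row, so the choice of row, the count minimum and the fold rule could not change its ratio of 2.29. Only the scaling, the pseudocount and trend removal could move it. The Fosl1 share of the Fos family in WT and dKO was 1.83% and 9.91% by the most abundant row per length, and 0.899% and 4.28% by counts not divided by length. For all measured genes, the number higher and lower was 286 and 640 by the main computation, 130 and 1040 by library totals, 467 higher by the most abundant row, 638 higher by the longest row, 698 and 1653 with a pseudocount of 0.1, 154 and 187 with one of 5, 1336 and 1955 by a 1.5-fold rule, 25 and 56 by a 4-fold rule, and 395 lower with the trend removed. Lower genes were 69.1% of those 2-fold apart, and 88.9% by totals, 54.8% with a pseudocount of 5 and 57.9% with the trend removed.

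The lists around AP-1 moved by few genes at the 2-fold rule. The AP-1 targets had 5 higher and 2 lower by the main computation. The number of targets higher was 4 by library totals, 7 by the most abundant row and 4 by the longest row. It was 6 with median-ratio scaling or a pseudocount of 0.1. With the trend removed, 4 targets were higher and 3 lower. By library totals, 130 of 14885 measured genes were higher and 1040 lower. Partner genes then had 0 higher, MAP kinase genes 3 lower, transcription regulators 1 lower, and other immediate early genes 0 higher and 1 lower. By the most abundant row, 467 of 14861 measured genes were higher and 882 lower. Partner genes then had 0 higher, MAP kinase genes 2 higher, regulators 2 higher and turnover genes 2 lower. By the longest row, 638 of 14480 measured genes were higher and 947 lower. For this row, MAP kinase genes (19 measured) had 1 lower and regulators (11 measured) 4 higher and 1 lower. Turnover genes then had 1 higher and AP-1 targets 1 lower. With median-ratio scaling, MAP kinase genes had 2 higher, beside 300 of 14885 measured genes. With a pseudocount of 0.1, 698 of 14885 measured genes were higher and 1653 lower. Partner genes then had 2 higher and MAP kinase genes 3 lower. With a pseudocount of 5, turnover genes had 0 lower, beside 187 of 14885 measured genes. By the 1.5-fold rule, 1336 of 14885 measured genes were higher and 1955 lower. Higher were then 3 of 14 partner genes, 5 of 21 MAP kinase genes and 2 of 12 regulators. So were 4 of 14 turnover genes, 10 of 25 targets and 4 of 23 early genes. The number lower was 3 of the MAP kinase genes, 1 of the regulators, 2 of the turnover genes, 4 of the targets and 2 of the early genes. By the 4-fold rule, 25 of 14885 measured genes were higher and 56 lower. Then 1 target was higher and 0 lower, partner, MAP kinase, regulator and early genes had 0 higher, and turnover genes had 0 lower. With the trend removed, 287 of 14192 measured genes were higher and 395 lower. Partner and early genes then had 0 higher, turnover genes 0 lower and early genes 1 lower. The cause of these moves was not tested. Depth limits the genes with few counts, among those named the Batf genes, Det1, Mmp9 and Mmp13, and some MAP kinase genes such as Mapk11, whose 76 and 21 counts gave a log2 ratio of −0.93 with the pseudocount and a CPM 3.62-fold lower.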
